A study of Mus musculus with 24 samples.

Results

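The genes described here are 47 zinc finger genes that lie in 2 gene clusters of the mouse genome, 24 on chromosome 13 and 23 on chromosome 17, out of 35591 genes in the count table. Members were chosen by name and place, as genes whose symbol is Zfp followed by digits and whose start falls between 60000000 and 69000000 on chromosome 13 or between 20000000 and 24000000 on chromosome 17. The pair of clusters was itself picked from earlier results of these libraries, the difference between genotypes among them, so that difference is given below as a description and nothing is read from it. Along chromosome 13 the members run from Zfp808 to Zfp273, and the nearest genes of that name outside the limits are Zfp346 before and Zfp72 after. Along chromosome 17 they run from Zfp160 to Zfp13, with Zfp97 before and Zfp598 after.

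RNA-seq was performed on 24 libraries from 6 male mouse embryonic stem cell lines, 3 of them Smchd1 fl/+ (called wt here) and 3 Smchd1 del/+ (het), each sampled on 4 occasions (day 0, day 2, day 2.5, day 3) on the way to neuromesodermal progenitors, the cells that feed the growing spinal cord and tailbud mesoderm. Every line came from a Cast mother that was Smchd1+/+ and a C57BL/6 father carrying Smchd1 del/fl and MMTV-Cre, so both genotypes kept the intact maternal allele and the lines differed in whether the paternal allele was floxed or deleted. Lines were kept in 2i + LIF medium, which holds the Wnt agonist CHIR99021, and were moved in steps toward serum medium with LIF for day 0. The last mix that the methods describe still held some 2i + LIF medium. Cells then spent the time to day 2 in N2B27 with bFGF, and CHIR99021 was added from day 2. Each line was 1 culture per day, and lines are the replicates throughout.

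KRAB zinc finger genes form a large family of DNA-binding repressors, and the mouse genome carries them in arrays that grew by tandem duplication. An array of C2H2 fingers contacts DNA, and the KRAB box recruits TRIM28, which brings in the histone methyltransferase SETDB1 and HP1 proteins to silence transposable elements, and some genes and imprinted loci, in pluripotent cells. SMCHD1, a non-canonical SMC protein, is a chromatin repressor best known from X inactivation. A pattern search in the annotated coding sequences found a KRAB box in 23 of 24 chromosome 13 members and 21 of 23 chromosome 17 members, Zfp367, Zfp213 and Zfp13 being those without a match. The median member held 14.5 C2H2 fingers on chromosome 13 (0 to 23) and 12 on chromosome 17 (5 to 20).

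RefSeq promoters, 250 bases before to 50 bases after a transcript start on build GRCm38.p6, were at hand for 41 of the 47 members, 20 on chromosome 13 and 21 on chromosome 17. The reference strain supplies these letters, and the Cast allele that each line also carries was not examined. Of all 12-base stretches with at most 1 open base (N) inside, GGGANATGTAGT was the one held by most chromosome 13 members on the coding strand, tied with the same letters shifted by 1 base. Searched on both strands, it was in at least 1 promoter of 13 of 20 chromosome 13 members (65.0%), in 0 of 21 chromosome 17 members, in 21 of 247 other Zfp genes (8.50%) and in 208 of all 27025 genes with a promoter (0.770%). The chromosome 13 share is a description, since the stretch was picked for it. In the 12 members that hold it in the promoter nearest to their annotated start it lay on the coding strand and began 178 to 16 bases upstream of that promoter's start, which for Zfp759 and Zfp458 is 6568 and 9472 bases from the annotated one. The capitals below mark that stretch in 3 members, Zfp712 (chr13:67061121-67061420, minus strand), Zfp953 (chr13:67360523-67360822, minus strand) and Zfp429 (chr13:67399718-67400017, minus strand), shown because Zfp712 rose at day 2, Zfp953 fell and Zfp429 did not pass the test.

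Zfp712: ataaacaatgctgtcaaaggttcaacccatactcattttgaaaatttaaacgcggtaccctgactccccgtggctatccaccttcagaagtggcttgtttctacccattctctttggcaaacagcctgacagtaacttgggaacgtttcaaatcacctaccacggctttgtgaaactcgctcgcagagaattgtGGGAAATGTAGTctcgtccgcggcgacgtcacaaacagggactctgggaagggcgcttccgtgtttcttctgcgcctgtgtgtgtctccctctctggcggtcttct

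Zfp953: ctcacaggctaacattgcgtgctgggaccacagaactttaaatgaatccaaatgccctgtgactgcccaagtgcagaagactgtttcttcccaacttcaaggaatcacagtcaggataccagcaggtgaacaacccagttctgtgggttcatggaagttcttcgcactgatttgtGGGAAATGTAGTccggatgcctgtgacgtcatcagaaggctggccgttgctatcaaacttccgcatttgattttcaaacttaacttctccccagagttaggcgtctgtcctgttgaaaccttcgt

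Zfp429: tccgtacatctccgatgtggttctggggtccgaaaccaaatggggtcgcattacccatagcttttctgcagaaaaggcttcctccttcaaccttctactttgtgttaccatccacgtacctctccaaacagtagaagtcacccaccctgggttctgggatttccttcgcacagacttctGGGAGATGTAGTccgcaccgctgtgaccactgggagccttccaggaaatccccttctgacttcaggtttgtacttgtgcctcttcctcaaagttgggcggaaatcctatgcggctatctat

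The palindrome CACGTG, the core of an E-box, was in promoters of 8 of 21 chromosome 17 members (38.1%), 2 of 20 chromosome 13 members (10%), 13 of 247 other Zfp genes (5.26%) and 2187 of all 27025 genes (8.09%). The promoters of Zfp942 and Zfp943 overlap, as do those of Zfp944 and Zfp758, and each pair shares a single site, so the 8 chromosome 17 members rest on 6 sites. Both stretches were settled on after the sequences had been read, so nothing is drawn from them about any factor. CACGTG is in capitals below in Zfp459 (chr13:67421369-67421668, minus strand), the member with the largest fall in expression, and in Zfp943 (chr17:21962309-21962608, plus strand) and Zfp758 (chr17:22361213-22361512, plus strand).

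Zfp459: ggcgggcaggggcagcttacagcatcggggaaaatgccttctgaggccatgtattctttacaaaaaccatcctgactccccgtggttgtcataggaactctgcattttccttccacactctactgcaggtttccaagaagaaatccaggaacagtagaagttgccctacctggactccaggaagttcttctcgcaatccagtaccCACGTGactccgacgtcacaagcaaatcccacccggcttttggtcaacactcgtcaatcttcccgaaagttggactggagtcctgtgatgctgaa

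Zfp943: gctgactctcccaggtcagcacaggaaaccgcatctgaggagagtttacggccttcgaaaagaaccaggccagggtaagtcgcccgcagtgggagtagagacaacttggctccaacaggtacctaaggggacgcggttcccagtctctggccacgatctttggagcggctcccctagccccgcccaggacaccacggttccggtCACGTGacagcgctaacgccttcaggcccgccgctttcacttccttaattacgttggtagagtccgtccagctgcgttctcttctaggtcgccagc

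Zfp758: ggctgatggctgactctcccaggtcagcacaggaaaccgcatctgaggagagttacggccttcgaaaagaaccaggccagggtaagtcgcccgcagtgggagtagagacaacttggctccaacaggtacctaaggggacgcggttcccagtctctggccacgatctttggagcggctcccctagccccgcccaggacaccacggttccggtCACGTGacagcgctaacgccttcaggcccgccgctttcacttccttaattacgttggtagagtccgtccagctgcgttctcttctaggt

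Zfp943 and Zfp758 each start beside a neighbour that is read the other way. Zfp942 and Zfp943 are separated by 87 bases, and Zfp944 and Zfp758 by 52 bases. The promoters of Zfp943 and Zfp758 matched at 292 of 292 aligned bases, and those of their partners Zfp942 and Zfp944 at 274 of 275. In the chromosome 13 cluster the closest promoters were those of Zfp456 and Zfp429, identical at 269 of 292 aligned bases (92.1%). CpG dinucleotides in the 300-base window had a median of 8 on chromosome 13, 10 on chromosome 17 and 7 over all genes, and the highest members were Zfp367 with 36 and Zfp213 with 24.

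Libraries held 7.10 to 20.8 M counts (median 17.9 M), the smallest being wt day 2.5 line 2. Smchd1, on the same chromosome as the chromosome 17 cluster, had 131 to 149.04 CPM (read counts scaled to a common library total) in wt and 89.4 to 101 in het at day 0. The wt and het ranges were 187 to 217 and 115 to 124 at day 2, then 124 to 154 and 87.3 to 93.4 at day 2.5, then 167 to 207 and 104 to 107 at day 3, and did not overlap on any day. Markers moved with the labelled days. Pou5f1, a core pluripotency factor, went from a mean of 1319 CPM in wt at day 0 to 232 at day 3, and T, which marks mesoderm and neuromesodermal progenitors, from 2.56 to 193. wt line 1 stood apart in that its chromosome 8 genes were a median 0.20 higher on the log2 scale than in the other lines, over 670 genes. Extraembryonic endoderm markers, 14 genes all detected in every group, summed to 2342 to 3932 CPM in wt and 1359 to 1971 in het at day 0, and to 7585 to 15503 and 4601 to 6391 at day 2.

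Members were expressed at low to moderate levels. Per kilobase of exon, as RPKM (CPM divided by exon length in kilobases) averaged over 24 libraries, the highest on chromosome 13 were Zfp935 (8.82), Zfp58 (8.11) and Zfp459 (7.99), and on chromosome 17 Zfp948 (14.8), Zfp229 (10.1) and Zfp51 (9.95). The lowest were Zfp457 at 0.121 RPKM and Zfp983 at 0.984. Zfp457 had 0 to 27 counts per library and was at 0 in 6 of them, and it missed the filter on low counts at days 0 and 2, where 46 of the 47 members were tested. All 47 were tested at days 2.5 and 3. Reads that fit more than 1 gene limit some of these levels, because Zfp935 and Zfp708 have no 75-base stretch of their longest transcript that occurs in no other annotated gene, and Zfp456 (39.5%), Zfp213 (50.1%) and Zfp58 (50.4%) are unique over only part of theirs. The other members were unique over at least 73.3% of their stretches.

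**Figure D1:**
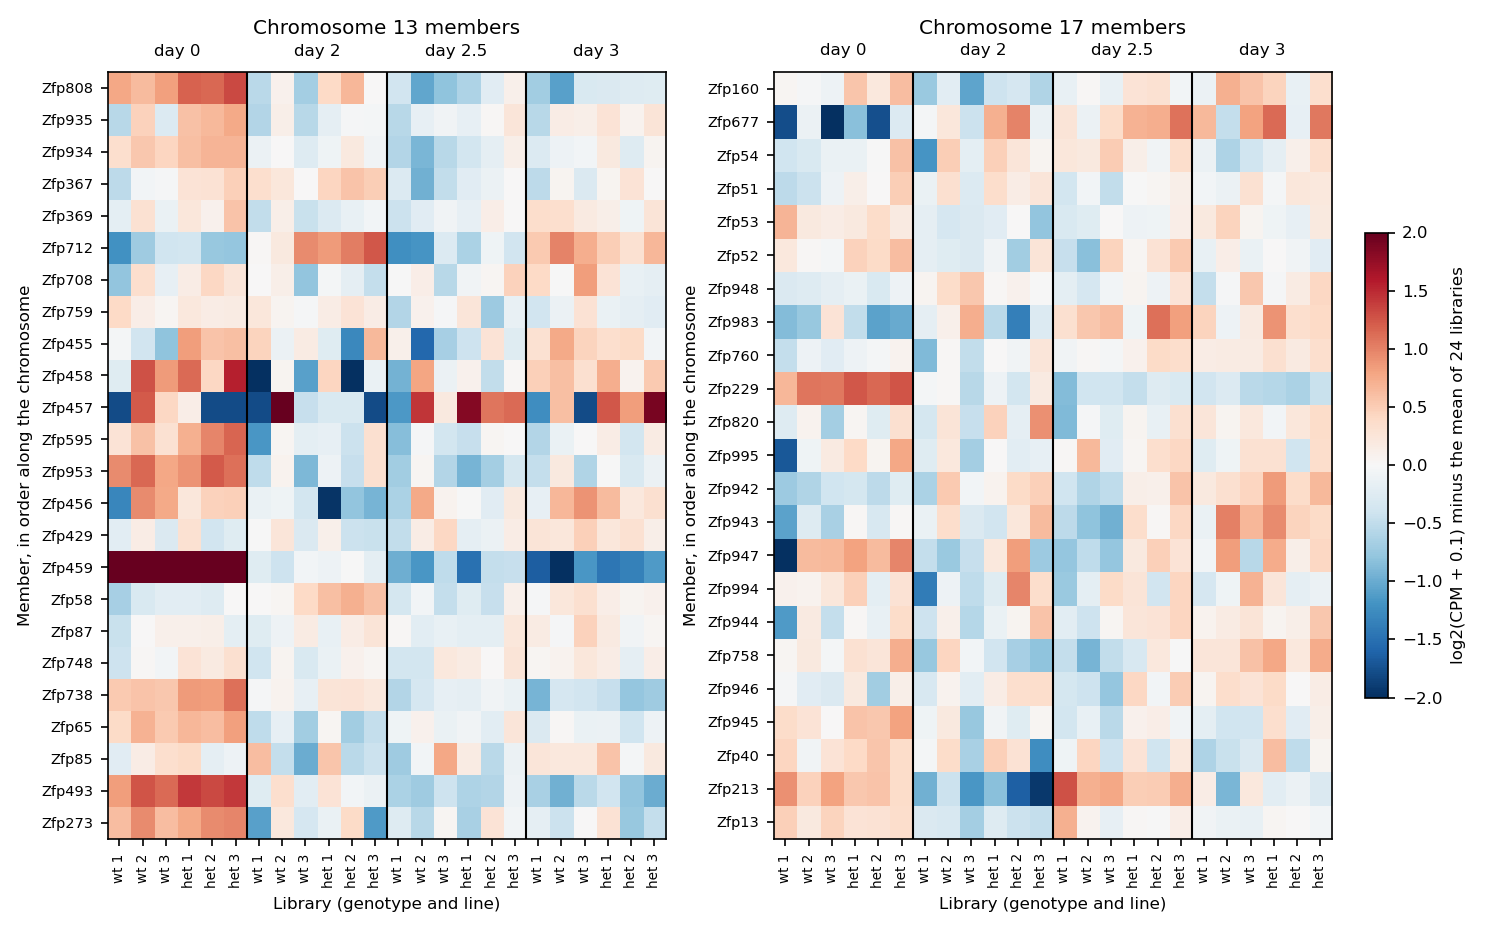
Level of each member in each of the 24 libraries, as log2(CPM + 0.1) minus the mean of the 24 libraries for that gene, in order along each chromosome (rows) and by day, genotype and line (columns). Red is above and blue below the gene's mean, and Zfp459 is red in all 6 day 0 libraries, with 74.2 to 97.2 CPM there and 3.61 to 7.04 CPM at day 3.

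From day 0 to day 2, when LIF and serum were withdrawn, the chromosome 13 cluster lost expression. Of 23 members tested, 13 fell and 3 rose, beside 30.5% of all genes lower and 30.2% higher at day 2 (edgeR's quasi-likelihood test, adjusted p under 0.05, 16387 genes tested), and the median log2 fold change was -0.51 against 0.011 over all genes. In wt lines alone the chromosome 13 median was -0.26 and in het lines alone -0.68. On chromosome 17, 8 of 23 fell and 4 rose, with a median of -0.21. The chromosome 17 median depended on the lines used, being -0.020 without wt line 1, -0.066 without wt line 3, -0.051 without het line 3, -0.12 in wt lines alone and 0.040, of the other sign, in het lines alone. For comparison, 15 of 18 Zfp genes of distal chromosome 4 fell and 0 rose, and 102 of 281 other Zfp genes fell and 70 rose, with medians of -1.05 and -0.10. The other genes inside the same coordinate limits were more balanced, with 26 of 88 lower and 24 higher on chromosome 13 and 6 of 27 lower and 5 higher on chromosome 17. Bulk libraries cannot tell fewer cells of a type from less RNA per cell.

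Zfp459 changed most. In CPM its lowest, median and highest values over the 6 libraries of a day were 74.2, 92.4 and 97.2 at day 0, then 11.7, 14.1 and 15.6 at day 2, then 5.50, 9.44 and 11.3 at day 2.5, and 3.61, 5.88 and 7.04 at day 3. Every day 0 library was above every later one, in both genotypes. The log2 fold change at day 2 was -2.66 ± 0.09 (SE, n = 6 libraries a day, edgeR adjusted p = 4.4e-16), which is 6.32 times lower, and further falls of 0.65 and 0.66 on the log2 scale followed at days 2.5 and 3 (edgeR adjusted p = 0.0037 and 0.014). At day 0 this gene alone made up 15.2% ± 0.85 (SD, n = 6) of the summed CPM of the chromosome 13 members, and at day 3 it made up 1.65% ± 0.36. Zfp429, its neighbour in the cluster, had 6.04, 6.76 and 9.88 CPM at day 0 and 5.81, 7.20 and 9.38 at day 2 (lowest, median and highest), with overlapping groups and a log2 fold change of -0.034 ± 0.19. Zfp459 shares 12% of its stretches with Gm48900, an annotated gene on the opposite strand that overlaps both genes.

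Other chromosome 13 members that fell at day 2 did so less steeply. Zfp953 had 22.6, 27.1 and 31.3 CPM at day 0 (lowest, median and highest) and 7.06, 10.95 and 16.5 at day 2, without overlap, a log2 fold change of -1.26 ± 0.16 (SE, edgeR adjusted p = 4.2e-07). Zfp493 (-1.22 ± 0.12), Zfp273 (-1.07 ± 0.22) and Zfp65 (-1.02 ± 0.12), picked here after their values were seen, were 2.03 to 2.33 times lower. Zfp458 fell by 1.61 on the log2 scale with a wide error (SE 0.55), and was also picked after its values were seen.

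Zfp712 went against the cluster and was the largest rise at day 2. Its lowest, median and highest CPM were 1.88, 2.66 and 3.46 at day 0, 4.59, 8.49 and 10.8 at day 2, 1.87, 3.14 and 4.23 at day 2.5, and 5.56, 6.86 and 9.09 at day 3. Neighbouring days did not overlap at any of the 3 steps, so it went up, down and up again in all 6 lines. The log2 fold changes were 1.46 ± 0.23, -1.37 ± 0.23 and 1.203 ± 0.21 (SE, edgeR adjusted p = 1.1e-05, 4.8e-05 and 0.00028), and the steps share the libraries of the day between them. Zfp58 took the same turns with smaller sizes, at medians of 16.2, 27.1, 15.6 and 20.7 CPM on the 4 days and log2 fold changes of 0.66, -0.67 and 0.38. Zfp58 shares 49.6% of its stretches with Gm26965, an annotated gene that overlaps it on the same strand.

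**Figure D2:**
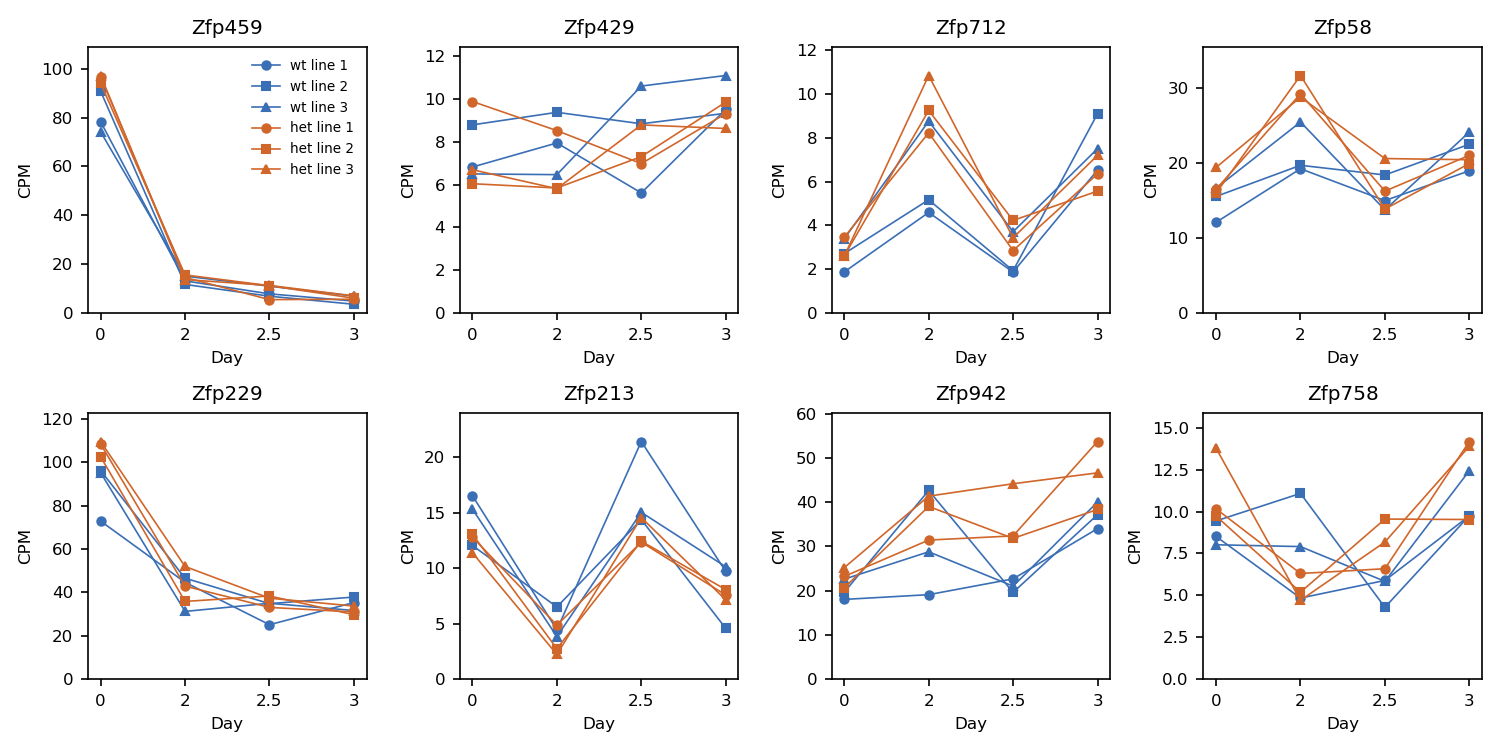
CPM of 8 members on each day in each line (wt in blue, het in orange, 1 symbol per line, linear axes from 0, with a scale for each gene). Zfp459 dropped from 74.2 to 97.2 CPM at day 0 to 11.7 to 15.6 CPM at day 2 while Zfp429 stayed between 5.61 and 11.1 CPM, and Zfp712 and Zfp213 moved in opposite directions at each step.

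On chromosome 17 the largest falls at day 2 were those of Zfp213 and Zfp229. For Zfp229 the lowest, median and highest CPM were 72.9, 99.4 and 110 at day 0 and 31.2, 43.8 and 52.0 at day 2, with no overlap, and the log2 fold change was -1.21 ± 0.10 (SE, edgeR adjusted p = 1.7e-09), or 2.31 times lower. Zfp213 had 11.4 to 16.5 CPM at day 0, 2.22 to 6.499 at day 2, 12.3 to 21.4 at day 2.5 and 4.57 to 10.1 at day 3. The 3 steps were -1.74 ± 0.20, 1.87 ± 0.20 and -0.93 ± 0.17 on the log2 scale (SE, edgeR adjusted p = 1.3e-07, 1.6e-07 and 0.00035), none with overlapping libraries. Zfp213 shares exon sequence with Gm26695 and AC154766.4 on the other strand, and since the kit used is described as stranded or non-stranded, reads of these genes may not be told apart.

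Rises on chromosome 17 were fewer. Zfp948, the most abundant member per length, went from 31.3 to 35.7 CPM at day 0 to 38.4 to 55.8 CPM at day 2, a log2 fold change of 0.39 ± 0.10 (SE, edgeR adjusted p = 0.0016) with no overlap. Zfp677, at 0.505, 1.43 and 3.19 CPM at day 0 and 2.54, 3.70 and 6.98 at day 2 (lowest, median and highest), rose by 1.28 ± 0.38 on the log2 scale (edgeR adjusted p = 0.0063), and the day 0 values of wt line 2 and het line 3 lay inside the day 2 range. Zfp160 fell by 0.76 at day 2 and rose by 0.57 at day 2.5, from 10.5 to 19.02 CPM to 19.8 to 27.2 CPM.

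**Figure D3:**
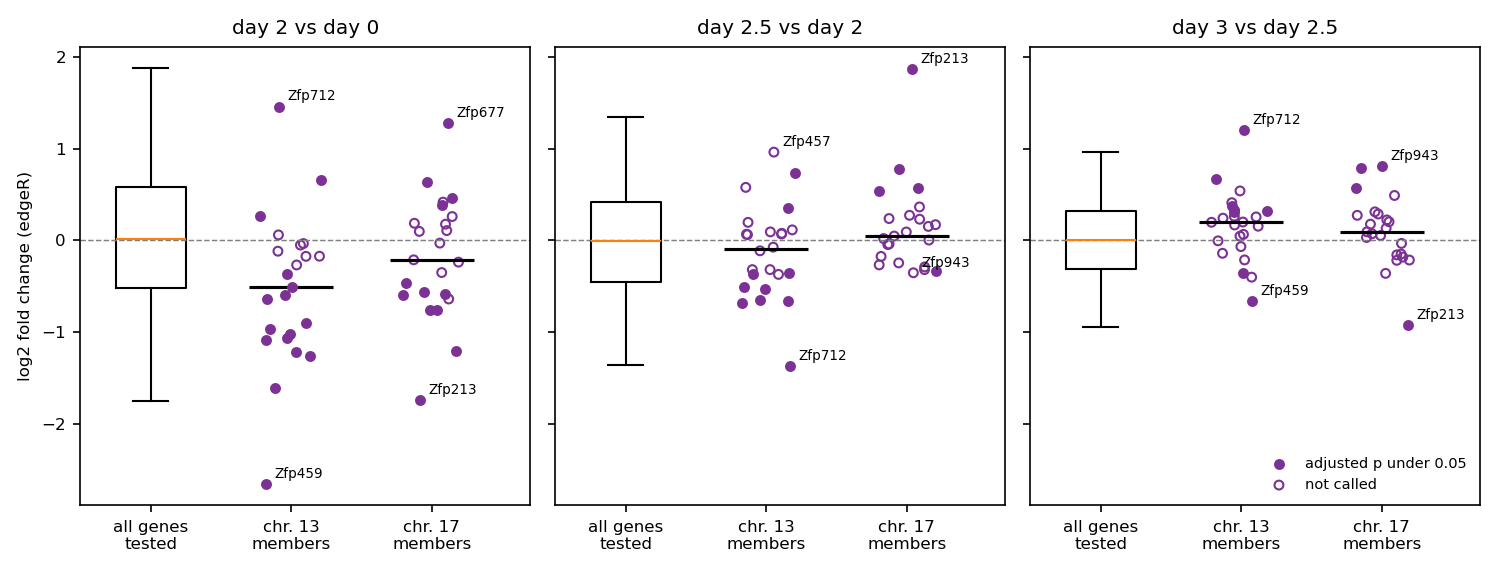
Log2 fold change of each tested member at each step between days (points, filled where the edgeR adjusted p was under 0.05), with black bars for the cluster medians, beside all genes tested (box from the 25th to the 75th percentile, whiskers at the 5th and 95th). At day 2 most chromosome 13 points lie below 0, around a median of -0.51, with Zfp459 at -2.66 and Zfp712 at 1.46.

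From day 2 to day 2.5, when CHIR99021 was added, 8 of 24 chromosome 13 members fell and 2 rose, and on chromosome 17 1 of 23 fell and 4 rose, beside 25.1% of all genes lower and 24.8% higher. The medians were -0.093 and 0.048, both close to 0 and moved by single lines and by the processing. With library totals alone they were -0.034 and 0.104, and with a block for each line the chromosome 17 median was 0.096. On chromosome 17 the median was 0.187 without wt line 2, 0.124 without het line 2 and 0.030 without wt line 1 or wt line 3, and on chromosome 13 it was -0.154 without wt line 3 and -0.204 when genes averaging under 50 counts were left out. In wt lines alone the medians were -0.045 and 0.066, and in het lines alone -0.099 and 0.108. Among those that fell on chromosome 13, Zfp367 had 24.8 to 36.4 CPM at day 2 and 12.6 to 24.7 at day 2.5, a log2 fold change of -0.69 ± 0.11 (SE, edgeR adjusted p = 3.5e-05). From day 2.5 to day 3, 5 of 24 rose and 2 fell on chromosome 13, and 3 of 23 rose and 1 fell on chromosome 17, beside 19.2% higher and 20.6% lower over all genes. The medians were 0.20 and 0.094, the latter running from 0.051 without wt line 1 to 0.165 without het line 2. In wt lines alone they were 0.253 and 0.256, beside -0.26 and -0.12 in those lines at day 2, and in het lines alone 0.095 and -0.019.

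The head-to-head pairs with near-identical promoters were picked for a closer description after the promoters had been read. Zfp942 had medians of 21.6, 35.2, 27.3 and 39.2 CPM on the 4 days, and its partner Zfp943 7.37, 9.40, 7.67 and 13.3 CPM. Both rose at day 2 (log2 fold changes of 0.64 and 0.46, edgeR adjusted p = 0.00060 and 0.049) and again at day 3 (0.57 and 0.81, edgeR adjusted p = 0.00084 and 0.0064). In the other pair, Zfp944 had medians of 15.2, 15.5, 17.6 and 17.6 CPM and passed the test at no step, with log2 fold changes of 0.098, 0.092 and 0.13. Zfp758 fell by 0.59 at day 2 and rose by 0.79 at day 3 (edgeR adjusted p = 0.022 and 0.00065), from a median of 9.58 CPM at day 0 to 5.74, 6.24 and 11.1. So Zfp943 and Zfp758, whose promoters are alike, had log2 fold changes of 0.46 and -0.59 at day 2 and of 0.81 and 0.79 at day 3. The lines were not uniform at day 2. Zfp758 changed by -0.80, 0.23 and -0.019 on the log2 scale in wt lines 1 to 3 and by -0.68, -0.89 and -1.53 in het lines 1 to 3, and Zfp943 was up in 5 of 6 lines, with -0.40 in het line 1. The difference between these 2 genes was not tested. Per length, Zfp942 was 2.56, 3.36, 3.34 and 2.82 times (medians of 6 libraries) as high as Zfp943 on the 4 days, and Zfp944 was 1.58, 2.54, 2.89 and 1.81 times as high as Zfp758.

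Members with and without the GGGANATGTAGT stretch both included rises and falls at day 2. Of 11 tested chromosome 13 members with it in the promoter nearest to their start, 6 fell and 1 rose, beside 30.5% of all genes lower and 30.2% higher, with log2 fold changes from -1.61 to 1.46 and a median of -0.90. Of 8 without it in that promoter, 1 of which holds it in another of its promoters, 4 fell and 2 rose, from -2.66 to 0.66 with a median of -0.39. These 8 include Zfp935, whose nearest promoter at hand lies 91699 bases from its annotated start. The difference between them was not tested.

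Summed over members, the chromosome 13 cluster was the higher at day 0 and the lower at days 2.5 and 3. Chromosome 13 members together took 476 to 679 CPM in the 6 libraries of day 0, against 355 to 497 CPM for chromosome 17 members, and at day 3 312 to 375 against 344 to 426. The ratio of chromosome 13 to chromosome 17 was 1.40 ± 0.069 at day 0 (SD, n = 6, range 1.33 to 1.503), 1.07 ± 0.072 at day 2 (0.967 to 1.15), 0.888 ± 0.054 at day 2.5 (0.820 to 0.980) and 0.886 ± 0.033 at day 3 (0.825 to 0.911). All 6 day 0 libraries were above 1 and above every later library, and all 12 libraries of days 2.5 and 3 were below 1. Without Zfp459 the ratio went from 1.19 ± 0.058 at day 0 to 1.03 ± 0.066, 0.863 ± 0.049 and 0.871 ± 0.034. Days 0 and 2.5 still did not overlap. Without Zfp459 and Zfp229 the mean ratio was 1.55 on day 0, 1.17 on day 2, 0.954 on day 2.5 and 0.953 on day 3, with highest libraries of 1.06 at day 2.5 and 1.001 at day 3, so not every library was then below 1.

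**Figure D4:**
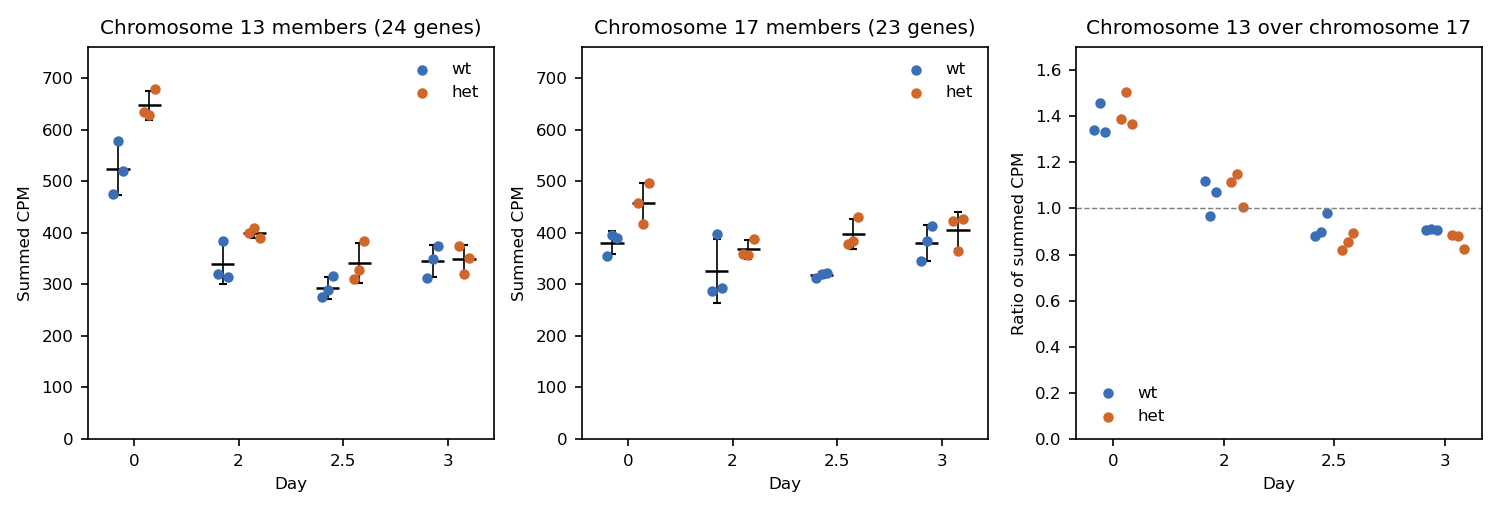
Summed CPM of the members of each cluster by day in wt (blue) and het (orange) libraries, with the mean and SD of 3 lines in black, and the ratio of the sums in each library at right, all axes from 0. The chromosome 13 sum fell from 476 to 679 CPM at day 0 to 314 to 410 CPM at day 2, and the ratio fell from at least 1.33 to at most 0.980 at day 2.5.

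Transcripts of proteins that KRAB zinc finger proteins work with also changed over these days. The list of silencing partners also holds Zfp57, Zfp445 and Zfp809, which are KRAB zinc finger genes themselves. Of the 27 genes listed, all tested, 18 fell and 6 rose at day 2, with a median log2 fold change of -0.51. Over all genes, 30.5% fell and 30.2% rose. Trim28, the corepressor that binds the KRAB box, changed by -1.82 ± 0.05 (SE, edgeR adjusted p = 6.6e-17), Setdb1 by -0.51 ± 0.06 (4.0e-07), and Zfp57, a KRAB zinc finger gene that guards imprints, by -2.04 ± 0.10 (1.0e-13). Others went up, among them Cbx5, which encodes an HP1 protein (0.28 ± 0.06, 0.00033), the DNA methyltransferase genes Dnmt3a (0.40 ± 0.07, 1.6e-05) and Dnmt3b (0.31 ± 0.05, 1.7e-05), and Chd3 (0.63 ± 0.14, 0.00058), picked after their values were seen. At day 2.5, 11 fell and 9 rose, beside 25.1% and 24.8% of all genes, and at day 3, 9 fell and 1 rose, beside 20.6% and 19.2%.

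Between genotypes, the contrast that took part in the choice of these clusters, no member was called at any day by edgeR. The share of all genes called was 0.0% at day 0. It was 0.551% for day 2, 0.0% for day 2.5, 0.00638% for day 3 and 0.00544% with the counts of a line summed over its 4 days. Smchd1, whose wt and het ranges did not overlap on any day, was not called at day 0 or day 2.5. Its log2 fold changes there were -0.61 and -0.60 (edgeR adjusted p = 0.10 and 0.907). It was called at day 2, at day 3 and in summed counts (edgeR adjusted p = 0.0082, 0.031 and 0.0056). The lack of a call is thus not a sign of no difference. At unadjusted p under 0.05 edgeR had 1649, 1576, 822 and 1432 genes on the 4 days and 1663 in summed counts, of which 14, 8, 13, 4 and 13 were members. The numbers tested were 15108, 15414, 15588 and 15686 genes on the 4 days and 18371 in summed counts. DESeq2 called 0.556%, 1.52%, 0.0192% and 0.740% of them on the 4 days and 0.789% in summed counts, with 1, 1, 0, 0 and 2 members among the calls. As a description, 20 of 23 chromosome 13 members and 19 of 23 chromosome 17 members had a positive log2 fold change of het over wt at day 0, with medians of 0.23 and 0.28 against -0.0013 over all genes. The other genes of the chromosome 13 window leaned the same way at day 0, 51 of 68 being positive (median 0.152), and those of the chromosome 17 window did not, with 8 of 23 (median -0.083). At day 2 the counts were 19 of 23 and 18 of 23 (medians 0.14 and 0.17), at day 2.5 19 of 24 and 20 of 23 (0.19 and 0.31), and at day 3 10 of 24 and 16 of 23 (-0.075 and 0.11). Single lines moved these medians. At day 0 the chromosome 17 median was 0.177 without wt line 1, 0.178 without het line 3 and 0.42 without het line 2. At day 2 both were higher without wt line 2, at 0.30 and 0.41, and the chromosome 17 median was 0.110 without wt line 1 and 0.076 without wt line 3. At day 2.5 the chromosome 13 median was 0.104 without wt line 1, 0.117 without het line 3 and 0.314 without wt line 3. At day 3 the chromosome 13 median ran from -0.131 without het line 1 to 0.027, of the other sign, without het line 2. It was -0.035 without wt line 2 and -0.0019 without wt line 3. The chromosome 17 median at day 3 was 0.038 without wt line 1 and 0.039 without het line 3.

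All 3 het libraries were above all 3 wt libraries for 10 chromosome 13 and 8 chromosome 17 members at day 0 (9.38% of all genes), for 3 and 1 at day 2 (8.08%), for 2 and 10 at day 2.5 (6.15%) and for 2 and 2 at day 3 (8.29%). In summed counts the figures were 6 and 8 (7.78%). Distal chromosome 4 Zfp genes had 11 of 18 at day 0, with a median of 0.35, 50 of 275 other Zfp genes, with a median of 0.074, and 13 of 68 other genes of the chromosome 13 window. In summed CPM at day 0 the values were 476, 577 and 521 in wt lines 1 to 3 against 635, 628 and 679 in het lines 1 to 3 on chromosome 13, without overlap, and 355, 396 and 391 against 458, 418 and 497 on chromosome 17, without overlap. At day 2 the chromosome 13 sums did not overlap (314 to 384 in wt, 390 to 410 in het), and the chromosome 17 sums did (287 to 397 and 356 to 388). At day 2.5 the chromosome 13 sums overlapped (275 to 316 and 310 to 385), and the chromosome 17 sums did not (312 to 322 and 378 to 430). At day 3 the chromosome 13 sums overlapped, at 312, 349 and 375 in wt and 374, 320 and 352 in het. The chromosome 17 sums did as well, at 344 to 413 and 364 to 426. The summed endoderm markers were lower in het at days 0 and 2, as given above, and overlapped later, at 5327 to 13873 CPM in wt and 5655 to 8221 in het at day 2.5, where wt line 1 was below all 3 het lines, and at 5329 to 10587 and 4078 to 6706 at day 3. Their part in these differences was not tested.

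With the 4 days of a line summed, 20 of 24 chromosome 13 members and 19 of 23 chromosome 17 members were positive, with medians of 0.12 and 0.28. Without wt line 1 those medians were 0.011 and 0.18, and without wt line 2 they were 0.197 and 0.324. wt line 1 was the lowest of the 6 lines for 15 of 24 and 14 of 23 members, and het line 3 the highest for 9 of 24 and 13 of 23, in log2 CPM averaged over days. The highest chromosome 13 members were Zfp808 (0.48 ± 0.07, SE), Zfp935 (0.37 ± 0.16) and Zfp595 (0.35 ± 0.18) among those with at least 50 counts a line, and the lowest Zfp456 (-0.19 ± 0.23), Zfp429 (-0.10 ± 0.12) and Zfp85 (-0.041 ± 0.18). On chromosome 17 they were Zfp947 (0.63 ± 0.23), Zfp677 (0.52 ± 0.16) and Zfp942 (0.36 ± 0.11), and Zfp213 (-0.20 ± 0.14), Zfp53 (-0.068 ± 0.10) and Zfp983 (-0.023 ± 0.18).

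Zfp808, first in the chromosome 13 row of genes, had 55.1, 50.02 and 57.3 CPM in wt lines 1 to 3 and 73.5, 72.0 and 80.5 in het lines 1 to 3 at day 0. At day 2 it had 22.2, 34.3 and 20.1 in wt and 42.8, 51.0 and 32.4 in het, at day 2.5 24.8, 15.6 and 18.4 against 21.0, 27.7 and 34.7, and at day 3 19.8, 15.2 and 26.2 against 26.4, 27.1 and 27.4. The genotypes did not overlap at days 0 and 3, overlapped at day 2 through wt line 2 and het line 3, and overlapped at day 2.5 through wt line 1 and het line 1. Zfp947 had 0.375, 4.72 and 4.77 CPM in wt and 5.30, 4.71 and 5.98 in het at day 0, so wt line 1 was far below the other 5 libraries, which overlapped. Zfp935 had 9.39, 19.2 and 11.4 CPM in wt and 20.8, 21.8 and 23.6 in het at day 0, without overlap, and shares all of its stretches with other genes.

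**Figure D5:**
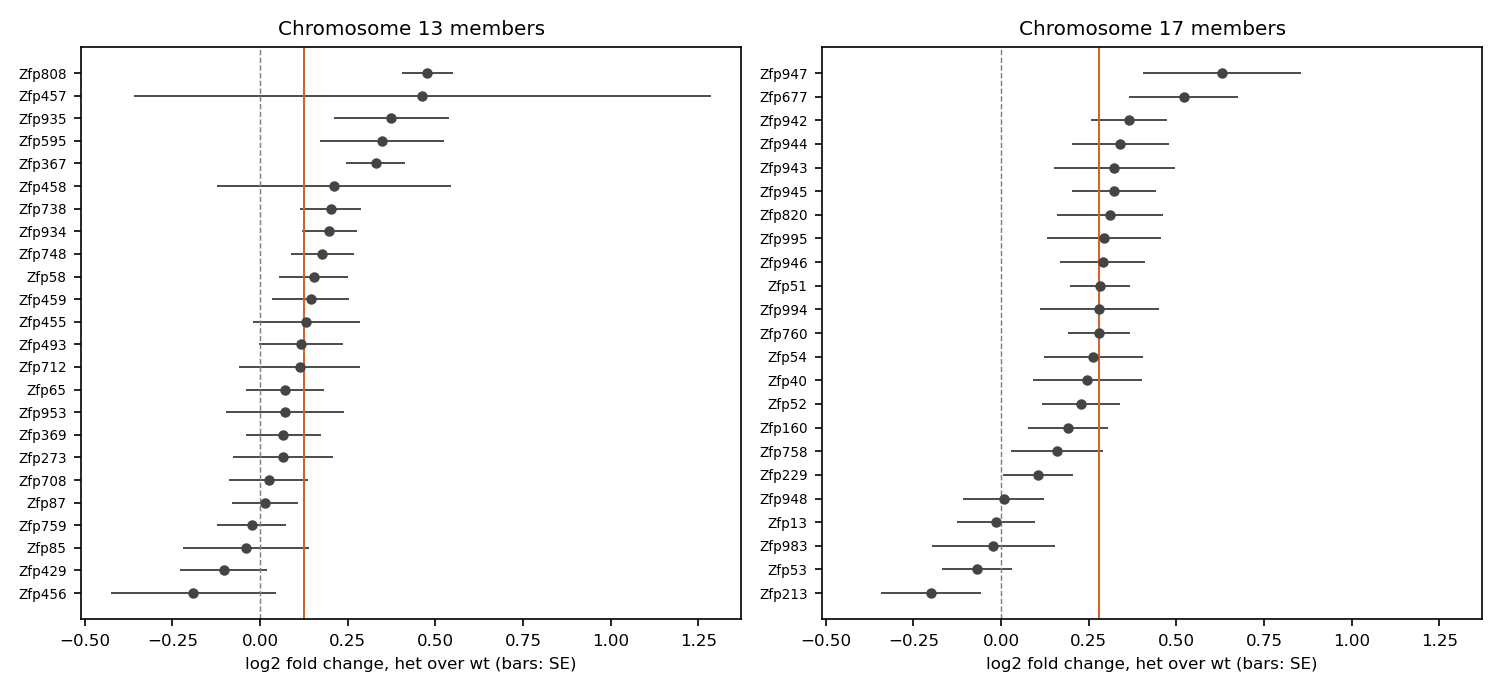
Log2 fold change of het over wt for each member with the 4 days of each line summed (points, bars are the SE from edgeR, n = 3 lines a genotype), sorted within each cluster, with the cluster median in orange and 0 dashed. The medians are 0.12 and 0.28, Zfp457 has the widest bar, and no member passed an edgeR adjusted p under 0.05.

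Whether the genotypes differed in how members changed between days was tested by an interaction term. No member was called at any step, and 0.0% of all genes were called from day 0 to 2, 0.0% from day 2 to 2.5 and 0.0% from day 2.5 to 3. Unadjusted p was under 0.05 for 3, 4 and 5 members, and for 1034, 850 and 635 genes in all, and DESeq2 called 6, 0 and 0 genes with 0 members among them. A positive interaction was found for 8 of 23 chromosome 13 and 9 of 23 chromosome 17 members at the first step (medians -0.096 and -0.124), for 11 of 24 and 16 of 23 at the next (-0.026 and 0.099), and for 5 of 24 and 6 of 23 at the last (-0.14 and -0.35, against 0.0037 over all genes). At the last step 23 of 86 other genes of the chromosome 13 window (median -0.127) and 4 of 18 distal chromosome 4 Zfp genes (median -0.141) were positive as well. Single lines moved these medians too. At the first step the chromosome 13 median was -0.183 without het line 2, -0.175 without wt line 3 and -0.145 without het line 1. The chromosome 17 median was -0.285 without wt line 3 and -0.227 without wt line 1. That chromosome 17 median was -0.033 in thinned counts and -0.225 with a block for each line. At the next the chromosome 17 median was 0.273 without wt line 3, 0.195 without het line 1, 0.063 without het line 3 and 0.037 without wt line 2, and the chromosome 13 median changed sign, from -0.118 without wt line 2 to 0.194 without wt line 3. The chromosome 13 median of the last step ran from -0.255 without het line 1 and -0.241 without wt line 2 to -0.055 without het line 3.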

How the data were processed

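RNA was sequenced by the study as single-end 75-base reads. Per the submitters' processing notes, Trim Galore 0.4.4, HISAT2 2.0.5 and build GRCm38.p6 were used, and the authors deposited raw read counts per gene. Members, gene lists and tests were chosen with earlier results of these data known. Counts were filtered with filterByExpr, scaled by TMM and tested with edgeR 4.0.16 in R 4.3.3 (quasi-likelihood test, Benjamini-Hochberg adjusted p under 0.05), with genotype as a term in the tests between days. CPM used TMM-scaled totals, and RPKM divided them by GENCODE exon union length. Named members were, in each cluster, the 3 highest and the lowest by RPKM, up to 2 rises and 2 falls per step among calls without overlap, the 3 largest and 3 smallest genotype differences at a mean of at least 50 summed counts, members called between genotypes, and those at the coordinate limits. Others were picked after their values were seen. The same line on successive days had residual correlations of -0.039 to 0.15. On data simulated for het against wt at day 2 (15215 genes) and for day 2.5 against day 2 (15954 genes), edgeR called 200 of 200 genes changed 4-fold, and 9 and 8 others. The changed genes were drawn from those averaging over 50 counts, and all genes were given the same spread between libraries. Smaller changes, and changes in genes with fewer counts, were not simulated. Alternatives were DESeq2 1.42.0, other scalings and filters, thinning, blocks, single genotypes and left-out lines. P-values measure the spread between these lines, and counting depth limits low members.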

Additional observations from a re-analysis of the deposited data

Results flagged for a closer look

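Zfp748, a KRAB zinc finger gene of the chromosome 13 cluster, went up from day 2.5 to day 3 in all 3 wt lines and down in all 3 het lines, with a mean change in het minus that in wt of -0.39 on the log2(CPM + 0.1) scale. Its values in wt lines 1 to 3 were 25.03, 25.1 and 37.6 CPM at day 2.5 and 33.2, 33.8 and 37.7 CPM at day 3, and in het 36.2, 32.6 and 38.5 and then 35.9, 28.5 and 35.6. In wt line 3 and het line 1 the change was very small, at 0.0036 and -0.012 on the log2 scale. Zfp748 was picked out because the genotypes moved in opposite directions, a movement that was not tested as such. The edgeR interaction term for this step was -0.36 ± 0.22 (SE) with an adjusted p of 0.999.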

How the results depend on the processing

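No called member changed sign under an alternative run, but 4 medians did. The chromosome 17 median went from -0.21 to 0.040 at day 2 against day 0, and from 0.094 to -0.019 at day 3 against day 2.5, in het lines alone. The chromosome 13 median of het against wt at day 3 went from -0.075 to 0.027 without het line 2. The chromosome 13 interaction median at day 2.5 against day 2 was -0.026 and went to 0.024 with library totals alone, to 0.074 in thinned counts, and to between 0.063 and 0.19 without wt line 1, wt line 3, het line 1 or het line 2. Between genotypes, 0 members were called on either chromosome at each day and in summed counts. Without a filter beyond 1 count, calls were 3 at day 0, 1 at day 2 and 1 in summed counts on chromosome 13, and 1 at day 0, 1 at day 2 and 3 at day 2.5 on chromosome 17, where 369, 384, 87 and 190 genes in all were called at days 0, 2 and 2.5 and in summed counts. DESeq2's Wald test called 1 chromosome 13 member at day 0, 1 at day 2 and 2 in summed counts. With line number as a replicate block, 1 was called at day 2 and 1 in summed counts, of 97 and 50 genes in all, although same-numbered wt and het lines shared only a number (residual correlations of -0.058 to 0.033). Leaving out 1 line gave 0 to 1 chromosome 13 calls at day 0 (1 without wt line 1 or wt line 2, of 35 and 68 genes in all), 0 to 1 at day 2 (1 without wt line 2, of 137) and 0 to 1 in summed counts (1 without wt line 1, of 404). For steps between days, a block for each line gave 16, 9 and 7 calls on chromosome 13 and 12, 7 and 4 on chromosome 17, against 16, 10 and 7 and 12, 5 and 4 without it, with 9911, 8207 and 7184 genes called in all against 9953, 8268 and 6561. In wt lines alone the calls were 10, 3 and 3 on chromosome 13, and 6 at day 2 and 2 at day 2.5 on chromosome 17, with 6869, 4519 and 2923 genes in all at the 3 steps. In het lines alone there were 2 at day 3 on chromosome 13. On chromosome 17 there were 3 at day 2.5 and 2 at day 3 in those lines. Over all genes, 8582, 6963 and 4710 were called at the 3 steps in het lines alone. For single genotypes only the steps named are given, and an unnamed step is not to be read as 0. The chromosome 13 median at day 2 was -0.68 in het lines alone. Leaving out a line gave 6 to 9 chromosome 13 calls at day 2.5 (6 without het line 2, of 7439 genes in all) and 3 to 6 at day 3 (4 without wt line 2 or het line 3, of 6027 and 5342 genes, and 3 without wt line 3 or het line 1, of 5892 and 5662), where thinning to the smallest library gave 4, of 5979. The cause of these shifts was not tested. Some of these fits had fewer libraries or reads.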
